A study of Drosophila melanogaster with 12 samples.

Results

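The medulla of the *Drosophila* optic lobe is built by neuroblasts, neural stem cells that pass through a fixed order of transcription factors as they age and give rise to neurons that carry identity factors of their own. Measurements are given here for 9 such factors, taken by gene identifier from a table of 17807 genes. Of these, *hth*, *ey*, *slp1*, *slp2*, *D* and *tll* belong to the temporal series of the neuroblasts, and *bsh*, *run* and *ap* mark classes of medulla neurons. The members were chosen for these roles and not for their values, although earlier results of these data were known.

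RNA came from brain lobes of L3 larvae, the last larval stage, of 3 genotypes reared at 25 °C. The values therefore cover all cells of the lobes, and none is of the medulla alone. Neuroblast-biased brains carried *insc-Gal4* driving *UAS-aPKC CAAX*, a membrane-targeted form of atypical protein kinase C that makes neuroblasts divide symmetrically. *insc-Gal4* is active in neuroblasts, so these brains hold ectopic neuroblasts and few neurons, and they model neuroblasts by cell number and not by cell sorting. *Mettl3* null brains lack the methyltransferase that writes N6-methyladenosine (m6A) on mRNA, and wildtype brains of the strain labelled Oregon_R (stock Oregon-R-P2) served as the source of neuron-biased RNA. Each genotype had 2 libraries of RNA precipitated with an antibody to m6A (meRIP) and 2 of total RNA (input), 12 libraries in all, described as biological replicates.

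In the temporal series each factor is thought to switch on the next and switch off an earlier one, so that a neuroblast of a given age makes neurons of a given kind. Notch signalling then divides the daughters of each division into classes, of which *ap* and *run* mark opposite ones. In flies m6A is found mostly in 5′ UTRs, in association with a short AAAC motif. An antibody against m6A also recovers some RNA that carries none, which the *Mettl3* null libraries measure.

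The neighbouring paralogs *slp1* and *slp2* are shown at sequence level because their meRIP values, given further on, carry different calls. The 20-base windows that follow were read 5′ to 3′ from the plus strand of RefSeq's release 6 genome, in which the genes have the coordinates of Ensembl's BDGP6.54. Capitals mark the AAAC at the centre of each window, and an AAAC whose window overlaps one already shown is left out, which leaves 2 sites of *slp1* and 4 of *slp2*.
slp1, 2L:3825694-3825713: tcaagagcAAACatctcaag
slp1, 2L:3825733-3825752: agaatcagAAACcaaagaaa
slp2, 2L:3836914-3836933: cgtcggtaAAACtgaacgta
slp2, 2L:3837079-3837098: ttctggcaAAACcataaaga
slp2, 2L:3837117-3837136: ggcaaatcAAACtaaaacca
slp2, 2L:3837169-3837188: gagtttttAAACcatctgac

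Counting every occurrence, the 109-base 5′ UTR of *slp1* held 3 AAAC on the mRNA strand and the 358-base 5′ UTR of *slp2* held 6, or 27.5 and 16.8 per kilobase. Read as GTTT on the same strand, the reverse complement occurred 0 times in *slp1* and 2 times in *slp2*. Among genes with 5′ UTRs of similar length, 65.0% held at least 1 AAAC at the length of *slp1* and 92.8% at the length of *slp2*. All 9 members held the motif, which was also present in 77.4% of the 8939 tested genes with an annotated 5′ UTR. Those genes had a median 5′ UTR of 223 bases. *hth*, *ey*, *D*, *run* and *ap* had 925 to 2222 bases, lengths at which 99.7% to 100% of genes held the motif. The share was 85.9% at the length of *tll* and 69.8% at that of *bsh*. Genes of similar length with as many AAAC ranged from 7.5% for *hth* to 92.8% for *D*. The number on the mRNA strand was 32 in *hth*, 11 in *ap*, 10 in *ey*, 9 in *run*, 6 in *D*, 4 in *tll* and 1 in *bsh*. Per kilobase the members ran from 4.98 in *D* to 27.5 in *slp1*, against a median of 8.29 over those genes. The authors found a longer form, AAACV (V for A, C or G), enriched in these data. An AAAC followed by T, as in *slp2* at 2L:3836914-3836933 and 2L:3837117-3837136, lies outside that form but is counted here. A match to this motif is a description of the sequence and not a measurement of m6A.

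Library totals were between 4220420 and 10828815 counts for input and between 7870449 and 31352131 counts for meRIP. *Mettl3*, the gene removed in the null line, had 2.25 to 9.05 CPM (counts per 1000000 counts of the library) in *Mettl3* null input, against 22.6 to 22.8 CPM in wildtype input. In input, the 6 neuroblast markers summed to between 2252 and 2343 CPM in neuroblast-biased brains and to between 473 and 519 CPM in wildtype brains, and each of the 6 rose. The 6 neuron markers summed to between 1224 and 1314 CPM in neuroblast-biased brains and to between 3699 and 3908 CPM in wildtype brains, and each of the 6 fell. Of 5 glia markers 4 fell, with sums of 241 to 274 CPM in neuroblast-biased brains against 592 to 613 CPM in wildtype brains. No neuroblast, neuron or glia marker was at 0 in any library. Tissues next to the brain also differed, since salivary gland markers summed to 0 in neuroblast-biased input and to 173 to 179 CPM in wildtype input, and ring gland markers to 8.94 to 30.1 CPM against 139 to 149 CPM. The other marker sums in input were 8.67 to 25.2 CPM against 38.4 to 74.3 CPM for fat body, 13.2 to 17.8 CPM against 13.0 to 33.0 CPM for muscle and 62.3 to 63.0 CPM against 39.0 to 42.1 CPM for hemocytes, with neuroblast-biased brains given before wildtype ones. *Mettl3* null input also stood apart from wildtype input, with 7.78 to 17.1 CPM against 173 to 179 CPM for salivary gland, 37.0 to 45.2 CPM against 139 to 149 CPM for ring gland and 935 to 1029 CPM against 592 to 613 CPM for glia markers. The part of these differences in the comparisons with *Mettl3* null was not tested.

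All 9 factors passed the filter on low counts, which required about 10 counts, in each fit. CPM were scaled by TMM (trimmed mean of M-values) factors, which correct library totals for differences in composition, and differences are log2 fold changes from limma-voom, called at an adjusted p under 0.05 over all genes tested. The 9 genes held 0.0703% to 0.148% of the counts of an input library and 0.207% to 0.503% of the counts of a meRIP library. *hth* alone gave 47.2% to 61.1% of these counts in input and 70.5% to 83.8% in meRIP. Per kilobase of exon in wildtype input, *hth* was at 53.6 and 56.5 CPM, separate from every other member. *ap* (28.3 and 46.9 CPM per kilobase) and *D* (both 32.2 CPM per kilobase) overlapped, as did *slp2* and *ey* after them. The lowest 4 were *run*, *tll*, *slp1* and *bsh*, each overlapping its neighbour and all between 5.15 and 13.5 CPM per kilobase.

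**Figure D1:**
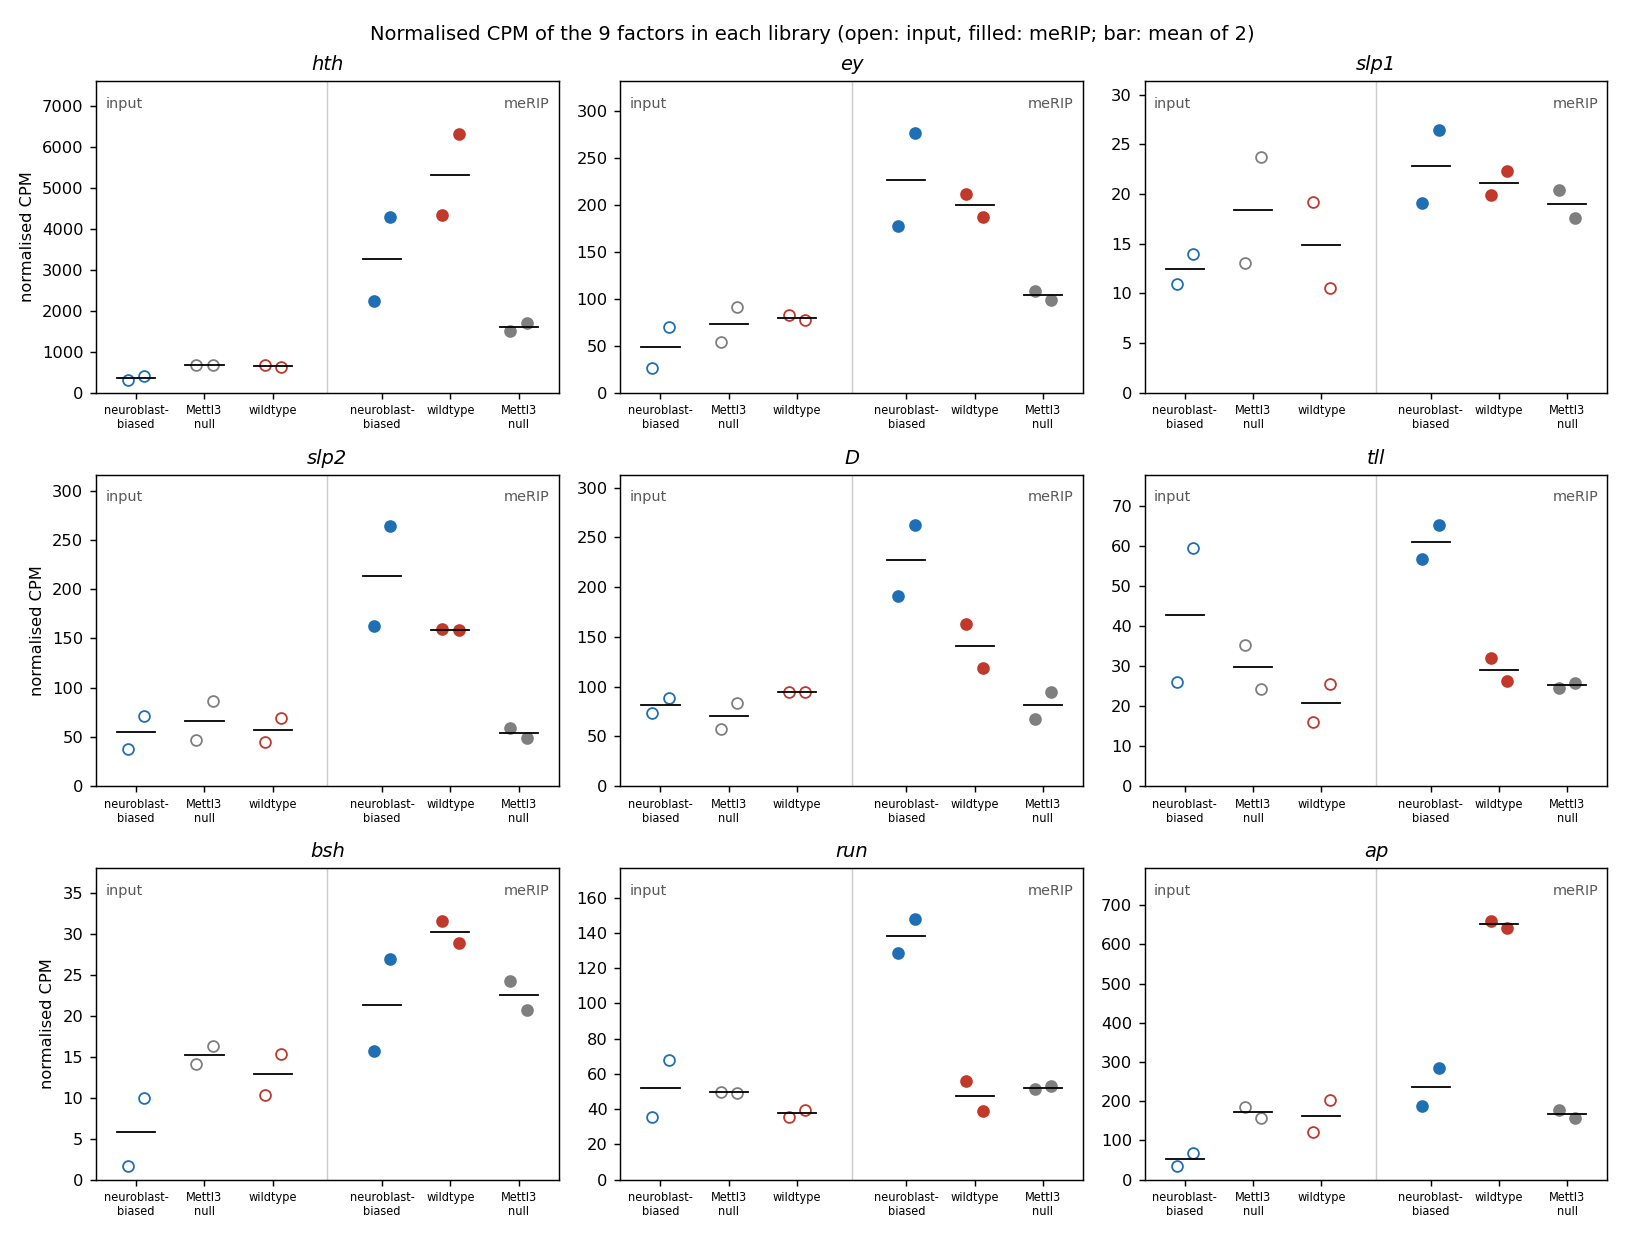
Normalised CPM (vertical axis, from 0, a separate scale for each gene) of the 9 factors in the 12 libraries, grouped by genotype, with open circles for input, filled circles for meRIP and a bar at the mean of 2 libraries. The meRIP libraries of *ap* sit at 660 and 642 CPM in wildtype and at or below 286 CPM in the other genotypes, while those of *run* sit at 129 and 148 CPM in neuroblast-biased brains and at or below 56.1 CPM in the others.

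In meRIP, 7 of the 9 factors rose in neuroblast-biased brains over *Mettl3* null, a call made for 20.6% of all genes, and none fell, where 18.2% of all genes did. Their median log2 difference was 1.17, against 0.04 over all genes. In wildtype brains over *Mettl3* null, 5 of the 9 rose, a call made for 16.6% of all genes, and none fell, where 6.11% of all genes did. Their median was 0.88, against -0.05 over all genes. Both comparisons use the same *Mettl3* null libraries and are not independent of each other. Lack of overlap between 2 groups of meRIP libraries was common. It held for 68.7% of all genes between neuroblast-biased and *Mettl3* null and for 63.5% between wildtype and *Mettl3* null. Between neuroblast-biased and wildtype it held for 72.55%. Between neuroblast-biased and wildtype meRIP, 3 factors rose (19.7% of all genes) and 2 fell (23.8% of all genes), with a median of 0.16 against 0.01 over all genes. Scaling by library size alone moved the median of all genes to -0.50 in neuroblast-biased over *Mettl3* null and to -0.63 in wildtype over *Mettl3* null. Under that scaling 800 genes were called higher and 3167 lower in neuroblast-biased over *Mettl3* null, where TMM factors gave 1955 and 1727. In wildtype over *Mettl3* null it gave 896 higher and 2962 lower, and upper-quartile factors gave 1344 and 1188, where TMM factors gave 1576 and 580. Single libraries also moved these counts over all genes. The number called higher was 1071 without *Mettl3* null meRIP replicate 1 and 1196 without replicate 2 in neuroblast-biased over *Mettl3* null, and 973 without *Mettl3* null meRIP replicate 1 in wildtype over *Mettl3* null, where 101 were called lower without wildtype meRIP replicate 2. In neuroblast-biased over wildtype meRIP 1020 were called higher without wildtype meRIP replicate 2, against 1872.

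In input, 2 of the 9 factors fell in neuroblast-biased brains relative to wildtype, a call made for 8.09% of all genes. None of the 9 rose, where 5.28% of all genes did. The median of the 9 was -0.16, close to the -0.17 of all genes. Of all genes tested, 57.0% had no overlap between the neuroblast-biased and wildtype input libraries. In bulk RNA, fewer cells that express a gene and less RNA of that gene per cell cannot be told apart, and the part of the shift in neuroblast and neuron markers in these values was not tested. Between *Mettl3* null and wildtype input, limma-voom, edgeR and DESeq2 each called 0 of the 9, where limma-voom called 0.255% of all genes, and 0 of the 9 had an unadjusted p under 0.05. The log2 differences ran from -0.47 to 0.50, and the smallest adjusted p was 0.83. Over all genes, the number called lower in neuroblast-biased input was 340 without wildtype input replicate 1, 332 without wildtype input replicate 2 and 481 without neuroblast-biased input replicate 2, against 762, and the number called higher was 196 and 153 without the same wildtype libraries, against 498. In *Mettl3* null over wildtype input between 9 and 30 genes were called when single libraries were left out, against 24.

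*hth* (FBgn0001235, 3R:10507561-10639568, minus strand) encodes a homeodomain protein found in the youngest medulla neuroblasts and kept in the neurons they make first. Its input level was 307 and 403 CPM in neuroblast-biased brains, 684 and 671 CPM in *Mettl3* null brains, and 669 and 634 CPM in wildtype brains. Both neuroblast-biased libraries lay below all 4 others, and the difference from wildtype was -0.81 (SE 0.14, adjusted p = 0.00116). In meRIP *hth* had 2244 and 4287 CPM in neuroblast-biased brains, 4337 and 6316 CPM in wildtype brains, and 1506 and 1697 CPM in *Mettl3* null brains. The 3 genotypes did not overlap, as was so for most genes between each pair of genotypes. It rose over *Mettl3* null by 1.02 (SE 0.28, adjusted p = 0.00532) in neuroblast-biased brains and by 1.77 (SE 0.28, adjusted p = 1.92e-05) in wildtype brains. The call in neuroblast-biased brains was lost without neuroblast-biased meRIP replicate 2 (0.58, adjusted p = 0.105) or *Mettl3* null meRIP replicate 1 (0.85, adjusted p = 0.0572). Neuroblast-biased meRIP was below wildtype meRIP by a log2 difference of -0.75 (SE 0.30, adjusted p = 0.0436), a call lost in 4 of 8 alternative analyses. It was also lost without neuroblast-biased meRIP replicate 1 (-0.31, adjusted p = 0.467) or wildtype meRIP replicate 2 (-0.46, adjusted p = 0.399). An antisense RNA gene, *asRNA:CR44018*, overlapped 1.75% of the exon bases of *hth*, and reads of the pair cannot be told apart where counting ignored strand.

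*ey* (FBgn0005558, 4:697689-721173, plus strand), the fly Pax6 homolog that also directs eye formation, follows *hth* in the series. Its input level was 26.4 and 70.4 CPM in neuroblast-biased brains, 54.0 and 91.5 CPM in *Mettl3* null brains, and 82.7 and 77.3 CPM in wildtype brains. The neuroblast-biased libraries were both below the wildtype ones but differed more from each other than the genotype means did, and the difference of -0.72 did not pass the test (SE 0.42, adjusted p = 0.293). Its meRIP level was 178 and 277 CPM in neuroblast-biased brains, 212 and 188 CPM in wildtype brains, and 108 and 99.4 CPM in *Mettl3* null brains. *ey* rose over *Mettl3* null by 1.17 (SE 0.22, adjusted p = 0.000137) in neuroblast-biased brains and by 1.0 (SE 0.22, adjusted p = 0.000917) in wildtype brains, and its neuroblast-biased and wildtype meRIP values overlapped (0.16, SE 0.22, adjusted p = 0.568). The call in wildtype brains was lost with library size alone (0.43, adjusted p = 0.142). Since the eye disc also expresses *ey*, 4 photoreceptor markers of the disc were summed, and they came to 85.7 to 101 CPM in neuroblast-biased input and 61.8 to 88.8 CPM in wildtype input. At most 1 of the 4 was at 0 in any library, the ranges overlapped, and their part in the *ey* values was not tested.

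*slp1* (FBgn0003430, 2L:3825675-3827099) and *slp2* (FBgn0004567, 2L:3836840-3839185) encode forkhead proteins that act together in the middle of the series. Each is a single exon on the plus strand, 9740 bases apart, and the transcripts shared 0 words of 25 bases. *slp1* had 10.9 and 13.9 CPM in neuroblast-biased input, 13.0 and 23.8 CPM in *Mettl3* null input, and 19.2 and 10.6 CPM in wildtype input. The wildtype pair enclosed the neuroblast-biased pair (0.10, SE 0.69, adjusted p = 0.948), and the sign of the difference turned in edgeR (-0.21) and DESeq2 (-0.20). Its meRIP level was 19.1 and 26.5 CPM in neuroblast-biased brains, 19.9 and 22.4 CPM in wildtype brains, and 20.4 and 17.6 CPM in *Mettl3* null brains, so all 3 genotypes overlapped. The difference over *Mettl3* null was 0.30 (SE 0.26, adjusted p = 0.389) in neuroblast-biased brains and 0.20 (SE 0.27, adjusted p = 0.661) in wildtype brains, and that of neuroblast-biased over wildtype was 0.10 (SE 0.25, adjusted p = 0.775).

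*slp2* overlapped between genotypes in input, with 38.0 and 71.4 CPM in neuroblast-biased brains, 46.5 and 86.0 CPM in *Mettl3* null brains, and 45.3 and 69.5 CPM in wildtype brains. The difference between neuroblast-biased and wildtype input was -0.10 (SE 0.42, adjusted p = 0.903). In meRIP it reached 162 and 264 CPM in neuroblast-biased brains and 159 and 158 CPM in wildtype brains, against 59.0 and 49.2 CPM in *Mettl3* null brains. It rose over *Mettl3* null by 2.0 (SE 0.23, adjusted p = 1.24e-07) in neuroblast-biased brains and by 1.61 (SE 0.23, adjusted p = 3.71e-06) in wildtype brains. These calls held in each of the 8 alternatives and without any one meRIP library. Neuroblast-biased over wildtype meRIP gave 0.39 (SE 0.22, adjusted p = 0.159), which passed the test only without neuroblast-biased meRIP replicate 1 (0.72, adjusted p = 0.0189). The neighbours thus differed in their calls over *Mettl3* null, and *slp1* had the lower counts (140 to 539 per meRIP library, against 391 to 5370 for *slp2*). Whether the 2 genes differ from each other was not tested.

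*D* (FBgn0000411, 3L:14175610-14178620, minus strand), or Dichaete, is a Sox-family protein of the later neuroblasts. Its input level was 73.6 and 89.0 CPM in neuroblast-biased brains, 57.4 and 83.9 CPM in *Mettl3* null brains, and 94.4 and 94.6 CPM in wildtype brains, with a difference between neuroblast-biased and wildtype of -0.16 (SE 0.27, adjusted p = 0.732). In meRIP it had 192 and 262 CPM in neuroblast-biased brains, 163 and 119 CPM in wildtype brains, and 67.9 and 94.2 CPM in *Mettl3* null brains. There was no overlap between genotypes, as for most genes between each pair of them. *D* rose over *Mettl3* null by 1.58 (SE 0.24, adjusted p = 6.31e-06) in neuroblast-biased brains and by 0.88 (SE 0.23, adjusted p = 0.0056) in wildtype brains. The call in wildtype brains was lost with library size alone (0.33, adjusted p = 0.301), without *Mettl3* null meRIP replicate 1 (0.51, adjusted p = 0.268) and without wildtype meRIP replicate 1 (0.54, adjusted p = 0.214). Neuroblast-biased meRIP was above wildtype meRIP by 0.69 (SE 0.23, adjusted p = 0.0174), a call lost without neuroblast-biased meRIP replicate 2 (0.49, adjusted p = 0.12) or wildtype meRIP replicate 2 (0.48, adjusted p = 0.263).

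*tll* (FBgn0003720, 3R:30852315-30854400, plus strand) encodes the orphan nuclear receptor Tailless of the oldest medulla neuroblasts. In input it had 26.0 and 59.6 CPM in neuroblast-biased brains, 35.3 and 24.3 CPM in *Mettl3* null brains, and 16.1 and 25.6 CPM in wildtype brains. The lower neuroblast-biased library was within 1 CPM of the higher wildtype library, and the difference of 0.94 did not pass the test (SE 0.54, adjusted p = 0.287). Its meRIP level was 56.6 and 65.2 CPM in neuroblast-biased brains, 32.1 and 26.2 CPM in wildtype brains, and 24.6 and 25.7 CPM in *Mettl3* null brains. *tll* rose in neuroblast-biased meRIP both over *Mettl3* null (1.36, SE 0.23, adjusted p = 3.96e-05) and over wildtype (1.06, SE 0.23, adjusted p = 0.000382). Wildtype meRIP was 0.29 above *Mettl3* null (SE 0.25, adjusted p = 0.449), with the lower wildtype library within 1 CPM of the higher null library.

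Among the identity factors, *bsh* (FBgn0000529, 2L:19765776-19769067, minus strand) is a homeodomain protein of neurons born from *hth*-expressing neuroblasts, and it was the member with the fewest counts in input. In input it had 1.71 and 9.96 CPM in neuroblast-biased brains, 14.1 and 16.3 CPM in *Mettl3* null brains, and 10.4 and 15.4 CPM in wildtype brains. The lowest value rested on 13 counts, and the difference of -1.48 between neuroblast-biased and wildtype had an SE of 1.13 (adjusted p = 0.428). Its meRIP level was 15.7 and 27.0 CPM in neuroblast-biased brains, 31.6 and 28.9 CPM in wildtype brains, and 24.2 and 20.8 CPM in *Mettl3* null brains. *bsh* passed none of the 3 meRIP tests, with differences of -0.08 (SE 0.27, adjusted p = 0.839) in neuroblast-biased over *Mettl3* null, 0.48 (SE 0.27, adjusted p = 0.223) in wildtype over *Mettl3* null, and -0.56 (SE 0.25, adjusted p = 0.0732) in neuroblast-biased over wildtype. The difference between neuroblast-biased and wildtype meRIP passed without neuroblast-biased meRIP replicate 2 (-0.91, adjusted p = 0.0107).

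*run* (FBgn0003300, X:20690670-20697321, plus strand) encodes Runt, a DNA-binding protein of the RUNX family that marks medulla neurons in which Notch is inactive. The authors also imaged Runt protein in neuroblasts. Input values were 35.8 and 68.1 CPM in neuroblast-biased brains, 49.8 and 49.4 CPM in *Mettl3* null brains, and 35.7 and 39.6 CPM in wildtype brains, so neuroblast-biased and wildtype overlapped (0.48, SE 0.39, adjusted p = 0.459). In meRIP *run* had 129 and 148 CPM in neuroblast-biased brains, 56.1 and 39.2 CPM in wildtype brains, and 51.3 and 53.1 CPM in *Mettl3* null brains. Both neuroblast-biased libraries were far above all 4 others, and the wildtype and *Mettl3* null libraries overlapped. *run* rose in neuroblast-biased meRIP over *Mettl3* null (1.48, SE 0.22, adjusted p = 6.5e-06) and over wildtype (1.55, SE 0.22, adjusted p = 2.2e-06), which held in each of the 8 alternatives and without any one library. Wildtype over *Mettl3* null gave -0.07 (SE 0.23, adjusted p = 0.861).

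*ap* (FBgn0267978, 2R:5706202-5727525, minus strand), or apterous, is a LIM-homeodomain protein that marks medulla neurons in which Notch is active. It had 35.9 and 68.6 CPM in neuroblast-biased input, 186 and 158 CPM in *Mettl3* null input, and 122 and 202 CPM in wildtype input. Both neuroblast-biased libraries lay below all others, and *ap* fell by 1.66 (SE 0.35, adjusted p = 0.00524) relative to wildtype. The call was lost without neuroblast-biased input replicate 1 (-1.27, adjusted p = 0.0509) or wildtype input replicate 2 (-1.18, adjusted p = 0.213). In meRIP it had 188 and 286 CPM in neuroblast-biased brains, 660 and 642 CPM in wildtype brains, and 177 and 156 CPM in *Mettl3* null brains. Wildtype stood apart from the other genotypes, and *ap* rose over *Mettl3* null by 2.03 (SE 0.22, adjusted p = 6.64e-08) in wildtype brains. In neuroblast-biased brains the difference over *Mettl3* null was 0.55 (SE 0.22, adjusted p = 0.0476), a call lost in 7 of the 8 alternatives and without any meRIP library other than neuroblast-biased replicate 1, with a range of 0.28 to 0.84 when single libraries were left out. Without neuroblast-biased meRIP replicate 2 it was 0.28 (adjusted p = 0.379), and without *Mettl3* null meRIP replicate 2 it was 0.39 (adjusted p = 0.317). Relative to wildtype meRIP, neuroblast-biased meRIP fell by 1.48 (SE 0.23, adjusted p = 5.98e-06).

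**Figure D2:**
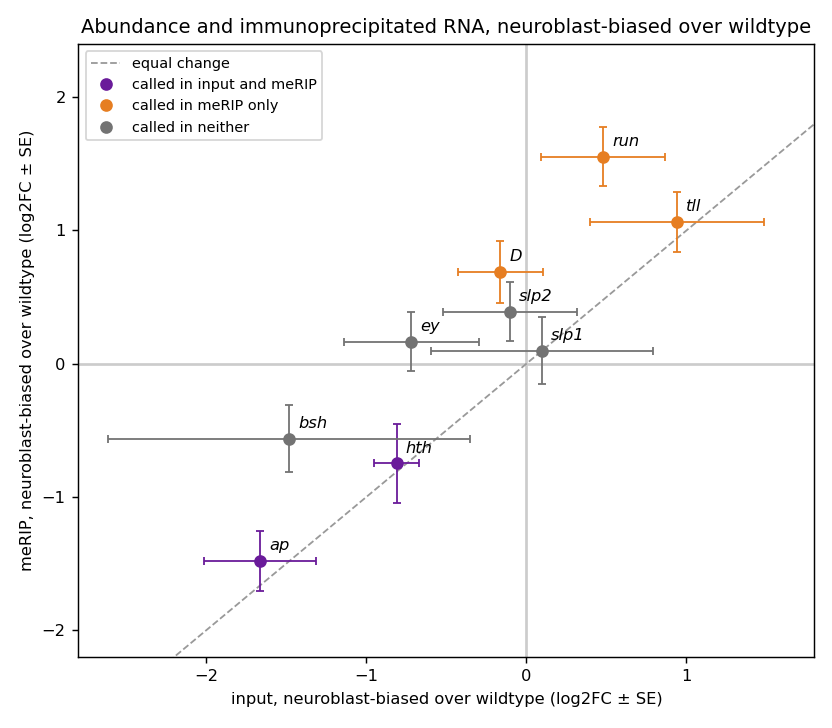
Log2 fold change of neuroblast-biased over wildtype brains in input (horizontal axis) and in meRIP (vertical axis) for the 9 factors, with bars of 1 SE and a dashed line of equal change. *ap* and *hth* lie at the lower left, called in both, while *run*, *tll* and *D* are called in meRIP alone, with meRIP differences of 1.55, 1.06 and 0.69.

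Abundance and immunoprecipitation were then set against each other by the ratio of meRIP to input, which scales each gene to its own level. The ratio of mean CPM was 9.20 in neuroblast-biased, 8.17 in wildtype and 2.36 in *Mettl3* null brains for *hth*. For *ap* it was 4.53 in neuroblast-biased, 4.01 in wildtype and 0.968 in *Mettl3* null brains. For *slp2* it was 3.90 in neuroblast-biased, 2.77 in wildtype and 0.817 in *Mettl3* null brains. In *Mettl3* null brains the ratios of the 9 factors lay between 0.817 and 2.36, with *hth* the highest, so that RNA of each was recovered without the methyltransferase.

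The ratio was compared with that of *Mettl3* null brains as an interaction over all 12 libraries. In neuroblast-biased brains it rose for 3 of the 9 factors, a call made for 4.46% of all genes, and the median of the 9 was 1.48, against 0.05 over all genes. The called factors were *ap* (2.19, SE 0.42, adjusted p = 0.00819), *hth* (1.89, SE 0.39, adjusted p = 0.0125) and *slp2* (2.12, SE 0.51, adjusted p = 0.0247). *tll*, called in neuroblast-biased meRIP over *Mettl3* null, did not pass by ratio (0.77, SE 0.49, adjusted p = 0.443). Nor did *bsh* (1.48, SE 0.92, adjusted p = 0.425) or *slp1* (0.66, SE 0.60, adjusted p = 0.622). DESeq2 called 6, adding *ey* (limma-voom 1.69, SE 0.50, adjusted p = 0.0664), *D* (1.29, SE 0.38, adjusted p = 0.0644) and *run* (1.35, SE 0.39, adjusted p = 0.0579), and limma-voom itself called 6 without neuroblast-biased meRIP replicate 1. Leaving out *Mettl3* null meRIP replicate 1 instead left 0 calls, with an adjusted p of 0.139 for *slp2*, 0.113 for *hth* and 0.0558 for *ap*. *slp2* lost its call with library size alone (1.67, adjusted p = 0.0559) and with the compared groups alone (2.11, adjusted p = 0.0868), and kept it in 4 of 12 analyses that left out a library, those without neuroblast-biased input replicate 2, *Mettl3* null input replicate 1, neuroblast-biased meRIP replicate 1 or wildtype meRIP replicate 2. *hth* also lost its call without neuroblast-biased input replicate 1 (1.72, adjusted p = 0.0549) or *Mettl3* null input replicate 2 (1.91, adjusted p = 0.0553). Over all genes the number called higher was 62 without *Mettl3* null meRIP replicate 1 and 831 without neuroblast-biased meRIP replicate 1, against 442, and it was between 201 and 265 without neuroblast-biased input replicate 1, *Mettl3* null input replicate 2, *Mettl3* null meRIP replicate 2 or either wildtype input library.

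In wildtype brains the ratio rose over *Mettl3* null for 2 of the 9, a call made for 5.22% of all genes, and the median of the 9 was 0.61, against -0.18 over all genes. These were *ap* (2.01, SE 0.37, adjusted p = 0.00475) and *hth* (1.77, SE 0.38, adjusted p = 0.0121). *slp2* had 1.61 (SE 0.52, adjusted p = 0.089) and was called in 4 of the 8 alternatives, DESeq2 among them. The call of *hth* was lost in 6 of 12 analyses that left out a library, namely any one of the wildtype or *Mettl3* null input libraries, *Mettl3* null meRIP replicate 1 or wildtype meRIP replicate 2, with an adjusted p up to 0.146. That of *ap* was lost without wildtype input replicate 1 (1.72, adjusted p = 0.0633) or replicate 2 (2.45, adjusted p = 0.0603). Over all genes the number called higher was 1 without wildtype input replicate 2, 122 without wildtype input replicate 1 and 95 without *Mettl3* null meRIP replicate 1, against 518, and it was between 224 and 345 without either *Mettl3* null input library or wildtype meRIP replicate 1. For *ey*, *slp1*, *D*, *tll*, *bsh* and *run* the differences ran between 0.25 and 0.76 and did not pass the test. By library size alone the ratio was called higher for 201 genes and lower for 74 in neuroblast-biased over *Mettl3* null, where TMM factors gave 442 and 24. In wildtype over *Mettl3* null it was called higher for 273 and lower for 238, where TMM factors gave 518 and 41.

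The 2 brain types were then compared by their meRIP to input ratios, neuroblast-biased over wildtype, which is called the m6A stoichiometry contrast here. The ratios rest on counts of each gene as a whole, not of its 5′ UTR, and include RNA recovered without the methyltransferase. Whether a transcript was methylated in different proportion was therefore not tested. In the stoichiometry contrast limma-voom, edgeR and DESeq2 each called 0 of the 9 factors. Over all genes limma-voom called 0%, edgeR called 2 genes and DESeq2 called 40. At an unadjusted p under 0.05 limma-voom listed 2 of the 9, among 674 of the 9918 genes tested. *run* had a difference of 1.10 (95% interval 0.20 to 2.01, unadjusted p = 0.0199, adjusted p = 0.692), and its ratio was 2.67 in neuroblast-biased brains and 1.27 in wildtype brains. *D* had a difference of 0.87 (95% interval 0.08 to 1.66, unadjusted p = 0.0328, adjusted p = 0.692), and its ratio was 2.79 in neuroblast-biased brains and 1.49 in wildtype brains.

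The intervals of the other 7 factors included 0. Among these 7 the narrowest belonged to *hth*, at 0.12 with an interval from -0.71 to 0.95, and to *ap*, at 0.17 with an interval from -0.71 to 1.06. These were the factors called by ratio over *Mettl3* null in both brain types. *bsh* had the widest, from -1.10 to 3.0 around 0.95. All 9 differences were above 0, with a median of 0.50 against 0.20 over all genes, but they rest on the same 12 libraries. The share of all genes above 0 was not summarised. *tll* (0.15) was at -0.12 in DESeq2. Without neuroblast-biased input replicate 1, *hth* (-0.058), *slp1* (-0.031), *tll* (-0.39), *bsh* (-0.14) and *ap* (-0.24) were below 0. The median of all genes was then 0.10. *hth*, *slp1*, *tll* and *ap* also changed sign without other single libraries.

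**Figure D3:**
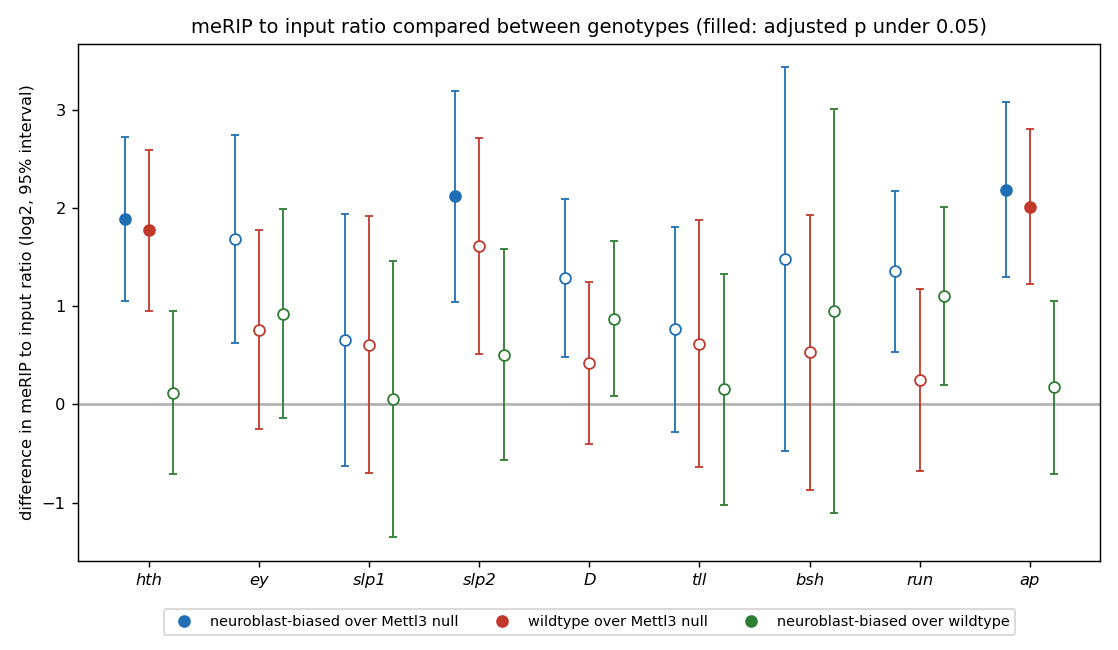
Difference in meRIP to input ratio (log2, vertical axis) for each of the 9 factors in 3 contrasts, with 95% intervals and filled points for an adjusted p under 0.05. The filled points are *hth*, *slp2* and *ap* for neuroblast-biased over *Mettl3* null and *hth* and *ap* for wildtype over *Mettl3* null, and no point is filled for neuroblast-biased over wildtype.

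The other regulators of the optic lobe gave the setting for these values. Of 29 listed genes 28 were matched and tested, comprising 8 further temporal factors, 5 spatial and proneural factors and 15 neuron identity factors. In meRIP 15 of the 28 rose (20.6% of all genes) and 3 fell (18.2% of all genes) in neuroblast-biased brains over *Mettl3* null. Their median was 0.80, against 0.04 over all genes. In wildtype brains over *Mettl3* null 22 rose (16.6% of all genes) and none fell, where 6.11% of all genes did. Their median was 1.31, against -0.05 over all genes. Between neuroblast-biased and wildtype meRIP 3 rose (19.7% of all genes) and 15 fell (23.8% of all genes). Their median was -0.71, against 0.01 over all genes. The 9 factors had 3 and 2 and a median of 0.16. In input 2 rose (5.28% of all genes) and 9 fell (8.09% of all genes) in neuroblast-biased brains relative to wildtype. Their median was -0.58, against -0.17 over all genes. By meRIP to input ratio over *Mettl3* null, 12 of the 28 rose in neuroblast-biased brains (4.46% of all genes). Their median was 1.21, against 0.05 over all genes. In wildtype brains 11 rose by ratio (5.22% of all genes), with a median of 1.19 against -0.18 over all genes. The 9 factors had 3 and 2 by these ratios, with medians of 1.48 and 0.61. The stoichiometry contrast called 0 of the 28 in limma-voom, where it called 0% of all genes. Their median was 0.12, against 0.20 over all genes. At an unadjusted p under 0.05 it listed 2 of the 28, among 674 of the 9918 genes tested. Neither edgeR nor DESeq2 was summarised for this list.

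Of the 8 further temporal factors, none rose in neuroblast-biased input, where 5.28% of all genes did, and 3 fell (8.09% of all genes). They were the zinc finger gene *opa* (-1.40, SE 0.33, adjusted p = 0.011), the doublesex-related gene *dmrt99B* (-1.98, SE 0.39, adjusted p = 0.00293) and the zinc finger gene *erm* (-1.19, SE 0.30, adjusted p = 0.0142). The 6 general neuroblast markers rose in the same brains, with a median of 1.82, against -1.29 over the 8 temporal factors. Whether the 2 lists differ was not tested.

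The 2 neuroblast-biased input libraries differed in one direction for every factor. Replicate 2 was above replicate 1 for 9 of 9, with a median log2 difference of 0.911, against 16 of 28 listed optic lobe genes and 52.2% of all genes. In neuroblast-biased meRIP replicate 2 was also above replicate 1 for 9 of 9, against 27 of 28 listed genes and 53.9% of all genes. Scaled by library size alone, it was above for 7 of 9, against 20 of 28 listed genes and 3192 of 9918 genes tested. In the other 4 groups the number was between 2 and 6 of 9. The neuroblast-biased input libraries also differed most over all genes, with an SD of log2 differences of 1.27, against 0.97 in *Mettl3* null input, 0.73 in wildtype input and 0.42 to 0.43 in meRIP. These 2 libraries enter every input and ratio value of the neuroblast-biased brains above.

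By their relative level over the 6 groups, the gene nearest to each factor was sought among 6335 expressed genes as the root mean square log2 distance, a description over 6 group means. It was *Syx1A* for *hth* (0.168), *tara* for *ey* (0.139), *Jarid2* for *slp1* (0.066), *tamo* for *slp2* (0.078) and *CG2258* for *D* (0.132). It was *SREBP* for *tll* (0.053), *AnxB11* for *bsh* (0.128), *Pde8* for *run* (0.19) and *CG10713* for *ap* (0.105). Among the 9 themselves the closest pair was *tll* and *run* at 0.272, but 140 other genes were nearer to *tll* than *run* was and 27 were nearer to *run* than *tll* was.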

How the data were processed

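RNA from each genotype was split into input and meRIP, ribosomal RNA was depleted and libraries were made with the NuGen Ovation kit. The authors trimmed reads with Trimmomatic, mapped them with STAR to Ensembl's BDGP6 and counted meRIP reads with featureCounts. The deposited values are unnormalised counts per gene. kallisto is named for input, so the counter behind the input columns is uncertain, and strandedness, duplicate removal and software versions are not given in the sources used here. Of 17807 identifiers 17710 matched Ensembl's BDGP6.54 annotation, and 3772 genes had 0 counts throughout.

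Counts were tested in R 4.3.3 with limma-voom (limma 3.58.1, edgeR 4.0.16). Genes were filtered by filterByExpr (minimum count 10) and scaled with TMM factors, and a mean was fitted for each group. Two-sided p-values were adjusted by the Benjamini-Hochberg method over all genes of a comparison, 8 in all, fitted on the 6 input, 6 meRIP or all 12 libraries. The fit was repeated with DESeq2 1.42.0, the quasi-likelihood test of edgeR, library size alone, upper-quartile factors, no filter, a replicate block, sample quality weights, the compared groups alone and the omission of each library. The test was checked on simulated data. All 9 members are named whatever their values, other temporal factors where called. The members and lists were chosen with earlier results of these data known. One listed gene, *scro*, is not analysed here. Counts without molecular identifiers are not independent molecules, and each group had 2 libraries.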

Additional observations from a re-analysis of the deposited data

How the results depend on the processing

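The number of the 9 factors called moved by over 1.5 times in wildtype over *Mettl3* null meRIP with library size alone (3, against 5). It also moved by over 1.5 times in the neuroblast-biased ratio over *Mettl3* null. There DESeq2 called 6 and a replicate block called 5, against 3. When single libraries were left out, the number ranged from 1 to 2 in neuroblast-biased over wildtype input, from 4 to 5 in wildtype over *Mettl3* null meRIP, from 5 to 7 in neuroblast-biased over *Mettl3* null meRIP, from 3 to 5 in neuroblast-biased over wildtype meRIP, from 0 to 3 for the wildtype ratio and from 0 to 6 for the neuroblast-biased ratio over *Mettl3* null. It stayed at 0 in *Mettl3* null over wildtype input and in the stoichiometry contrast.

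The replicate numbers were not taken to pair the libraries, although RNA of each genotype was split for input and meRIP, because no source ties a number to a shared sample and not every correlation was over 0.1. Same-numbered libraries had deviations correlated at -0.017 to 0.04 between genotypes in input, 0.088 to 0.166 in meRIP and -0.014 to 0.071 between input and meRIP of a genotype. A replicate block called 5 factors in the neuroblast-biased ratio over *Mettl3* null, adding *ey* (adjusted p = 0.0192) and *D* (adjusted p = 0.0241). It also called *slp2* in the wildtype ratio (1.60, adjusted p = 0.0332) and *bsh* in neuroblast-biased over wildtype meRIP (-0.56, adjusted p = 0.0494), and gave 0.008 for *slp2* in neuroblast-biased over wildtype input.

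Over 8 alternatives to the 63 reported differences, 468 values kept their direction and call, 15 lost and 10 gained the call, and 11 changed sign, each of a difference that was not called. Over all genes, calls moved by over 1.5 times in 15 pairs of comparison and alternative, for example 2545 with DESeq2 against 1260 in neuroblast-biased over wildtype input, 870 with DESeq2 and 178 with quality weights against 466 in the neuroblast-biased ratio, 885 with DESeq2 and 959 with the compared groups alone against 559 in the wildtype ratio, and 4 with edgeR and 143 with DESeq2 against 24 in *Mettl3* null over wildtype input. The members' sign changes were *slp1* in neuroblast-biased over wildtype input with edgeR (-0.21) and DESeq2 (-0.20), *slp2* there with upper-quartile factors (0.0014) and the block, and *tll* in the stoichiometry contrast with DESeq2 (-0.12). With library size alone they were *slp1* (-0.37), *tll* (-0.29) and *bsh* (-0.095) in wildtype over *Mettl3* null meRIP, *slp1* (-0.23) in neuroblast-biased over *Mettl3* null meRIP, and *D* (-0.093) and *run* (-0.27) in the wildtype ratio. That scaling lowered the median of all genes in the same comparisons, so these values lay above it. The cause of the other changes was not tested.

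Without single libraries, signs changed in neuroblast-biased over wildtype input for *slp1* (-0.55 to 0.30), *slp2* (-0.64 to 0.31) and *run* (-0.069 to 0.88). In meRIP they changed for *run* in wildtype over *Mettl3* null (-0.46 to 0.16), *bsh* in neuroblast-biased over *Mettl3* null (-0.42 to 0.31), and *ey* (-0.13 to 0.46) and *slp1* (-0.11 to 0.32) in neuroblast-biased over wildtype. In the wildtype ratio they changed for *slp1* (-0.021 to 1.03) and *run* (-0.034 to 0.59). In the stoichiometry contrast they changed for *hth* (-0.39 to 0.56), *slp1* (-0.21 to 0.69), *tll* (-0.39 to 0.80), *bsh* (-0.14 to 2.35) and *ap* (-0.25 to 0.69).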
